A study of Mus musculus with 7 samples.

Results

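Some rows of a gene array cannot be given to a single gene, because their probes match several genes of a family or a gene together with its pseudogene copies. The 178 brightest of these rows in mouse liver are described here. They were taken from the 1317 rows whose platform annotation lists at least 2 gene symbols, by a mean linear intensity of at least 1000 over all 7 arrays, out of 27541 rows in all. The intensity used for the choice was averaged over both groups, and the difference between the groups was not used. However, 12 of the 178 reached 1000 on average but not in each group, so that their choice is tied to their difference, and 166 reached it in both. The table values are intensities that the submitters had already processed, and they were used here as log2.

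The arrays (Affymetrix Mouse Gene 1.0ST) carried total RNA from whole livers of C57BL/6 male mice, 4 months of age. Mice of the 3 HDAC3 knockout arrays had been given AAV-Cre, an adeno-associated virus that delivers Cre recombinase. Those of the 4 rescued arrays, which the sample titles call WT, had been given AAV-Cre together with AAV-Flag-HDAC3, so that every mouse carried the Cre virus and only the rescued mice carried the additional vector. HDAC3 is a histone deacetylase of nuclear receptor corepressor complexes. Chow was freely available and livers were taken at 5 pm (ZT10), 2 weeks after injection. The promoter that drives Cre and the conditional allele are not given in the sources used here. Differences are knockout minus rescued on the log2 scale, and adjusted p-values are from limma's moderated test with Benjamini-Hochberg adjustment over all 27541 rows, with a threshold of 0.05.

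A processed pseudogene is a copy of a messenger RNA that was written back into the genome, and highly expressed genes such as those for ribosomal proteins and Gapdh have many of them. Other families, among them the glutathione S-transferases, the cytochromes P450 and the globins, grew by tandem duplication, and neighbouring copies can remain nearly identical. In both cases a probe set measures the sum of what its targets yield, and the share of each target cannot be read from it. Among the 178 rows, 97 carried 2 symbols, 45 carried 3, and the highest number was 12. They held 259 distinct symbols in all, of which the RefSeq gene table (GRCm38.p6) lists 195 as protein coding and 46 as pseudogenes, and 88 rows carried at least 1 pseudogene symbol. The symbols of 53 rows lie on 1 chromosome and those of the other 125 on several. By the form of their symbols, 93 rows held 1 named gene with predicted or pseudogene-type names, such as Gm numbers, and 2 held only such names. Another 35 held named symbols with the same letters before the first digit, classed as paralogs, and 40 held other named symbols. The 40 include related genes whose letters differ, such as the row of Hbb genes. The remaining 8 held a small RNA gene with another gene. Rows that share symbols can share target sequence and are not independent, and 44 symbol sets had more than 1 row.

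The pair of rows with the largest rises carried the same 4 symbols of the alpha-class glutathione S-transferases, which conjugate glutathione to electrophiles. Their 4 genes are shown by the 250 bases before each RefSeq start (GRCm38.p6), to let a reader see how alike the copies are. The windows are chr9:78230419-78230668 on the plus strand for Gsta1, chr9:78256879-78257128 on the plus strand for Gm3776, chr9:78289678-78289927 on the plus strand for Gm10639 and chr9:78347146-78347395 on the minus strand for Gsta2. Capitals mark the longest run of bases that all 4 share, each sequence reading 5′ to 3′ towards the gene.
Gsta1: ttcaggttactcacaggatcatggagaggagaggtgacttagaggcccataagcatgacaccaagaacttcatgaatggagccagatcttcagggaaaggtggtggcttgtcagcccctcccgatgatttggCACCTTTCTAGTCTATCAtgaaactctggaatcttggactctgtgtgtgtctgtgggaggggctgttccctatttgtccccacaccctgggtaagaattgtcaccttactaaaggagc
Gm3776: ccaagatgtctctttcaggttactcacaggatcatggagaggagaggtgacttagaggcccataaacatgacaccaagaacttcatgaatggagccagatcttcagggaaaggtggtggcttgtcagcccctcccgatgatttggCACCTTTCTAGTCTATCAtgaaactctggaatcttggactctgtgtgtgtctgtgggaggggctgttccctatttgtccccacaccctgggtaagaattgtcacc
Gm10639: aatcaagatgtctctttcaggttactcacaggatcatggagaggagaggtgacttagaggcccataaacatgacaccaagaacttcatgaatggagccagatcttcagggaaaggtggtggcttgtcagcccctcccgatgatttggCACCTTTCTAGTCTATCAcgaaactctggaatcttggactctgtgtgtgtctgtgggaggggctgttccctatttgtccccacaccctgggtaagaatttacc
Gsta2: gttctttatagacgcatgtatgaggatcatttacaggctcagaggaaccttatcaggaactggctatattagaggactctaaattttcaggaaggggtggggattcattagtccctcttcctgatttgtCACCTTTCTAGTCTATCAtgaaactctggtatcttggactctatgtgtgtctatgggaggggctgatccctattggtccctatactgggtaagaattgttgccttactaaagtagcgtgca

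The shared run CACCTTTCTAGTCTATCA of 18 bases began 118 bases before the start of Gsta1, 105 before that of Gm3776, 103 before that of Gm10639 and 121 before that of Gsta2. Searched on both strands, it occurred in 4 of 32851 RefSeq windows of this length, which are these 4. Aligned over their shared stretch, the windows of Gsta1 and Gm3776 were 99.6% identical and those of Gsta1 and Gm10639 99.1%, whereas Gsta2 was 81.2% identical to Gsta1. The core of the antioxidant response element, TGACNNNGC on either strand, was in none of the 4 windows and in 10.2% of all windows. A match or its absence describes these letters only.

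Between the groups, 25 of the 178 rows passed the test, which is 14% of them, against 9.76% of all rows and 17.6% of the 1650 rows of 1 symbol at the same brightness. The 16 higher rows made up 8.99%, against 6.49% of all rows and 10.3% of the bright rows of 1 symbol. The 9 lower rows made up 5.06%, against 3.26% and 7.27%. A difference of at least 1.5-fold was reached by 8 of the called rows, or 4.49% of the 178. The same share was 1.45% of all rows and 5.39% of the bright rows of 1 symbol. Of the 166 rows that were bright in both groups, 14 were higher and 7 lower. Leaving out a single array gave 8 to 36 calls, with 8 when rescued replicate 3 was missing, 9 and 11 when knockout replicate 1 or 2 was, and 13 and 15 when rescued replicate 2 or 4 was. The calls over all rows moved as well, from 2687 to between 570 and 3058, so a lost call does not single out the array left out. Below, a call is said to need an array where the fit without that array did not pass. Knockout and rescued values did not overlap in 49 rows, or 27.5% of the 178, against 28.3% of all rows and 36.6% of the bright rows of 1 symbol. The split between higher and lower depended on how the arrays were scaled. It was 16 higher and 9 lower as deposited, 9 and 12 after quantile scaling, 7 and 24 after median centring, and 12 and 9 after cyclic loess, and 7 higher and 9 lower rows were called in every one of these. Over all rows the split went from 1788 and 899 to 910 and 1039, 508 and 2057, and 872 and 1017. As deposited, the median difference was -0.00 over the 178 rows, 0.03 over bright rows of 1 symbol and 0.10 over all rows, and after cyclic loess it was -0.04 over the 178 rows and 0.00 over all rows.

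**Figure D1:**
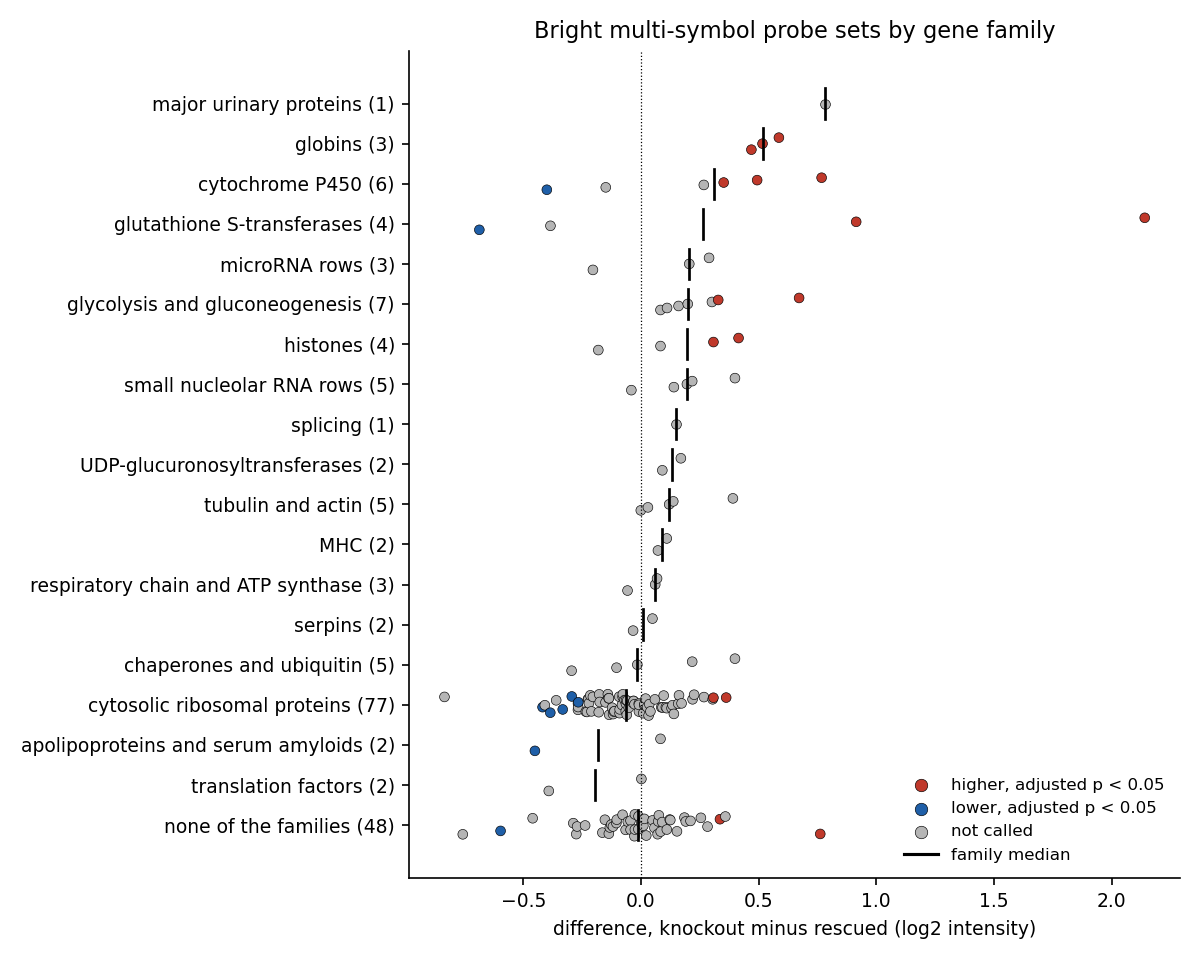
Difference between knockout and rescued arrays (log2 intensity, x axis) for each of the 178 rows, grouped by gene family (y axis, number of rows in brackets), with red and blue points for rows called higher and lower and a black line at each family's median. The 77 ribosomal protein rows lie between -0.84 and 0.36 with a median of -0.06, and the glutathione S-transferase rows span -0.69 to 2.14.

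Of 4 glutathione S-transferase rows, 2 were higher, 1 was lower and 1 did not pass. Beside this and the family counts that follow stand the 9.76% of all rows and 14% of the 178 that were called. Both rows of Gm10639, Gm3776, Gsta2 and Gsta1 were higher in the knockout livers, and 1 of the 2 rows of Gstp1 and Gstp2, the pi class, was lower. Probe set 10587331 of the alpha class read 11.08, 11.13 and 10.17 in the knockout arrays and 9.11, 9.06, 8.79 and 7.64 in the rescued arrays. All knockout values lay above all rescued ones, with knockout replicate 3 and rescued replicate 4 lowest in their groups. The difference of 2.14 (SE 0.35), or 4.41-fold, was the highest of all 27541 rows as deposited, with adjusted p = 0.0105. The row averaged 1849.8 in linear intensity in the knockout arrays and 432 in the rescued ones, so it was among the bright rows through the knockout arrays only. When knockout replicate 1 was left out, the difference of 2.0 no longer passed (adjusted p = 0.0572). Probe set 10595148, with the same symbols, read 11.26, 11.41 and 11.09 in the knockout and 10.38, 10.53, 10.08 and 10.37 in the rescued arrays. These values were tighter within each group, and the groups again did not overlap. The difference was 0.91 (SE 0.11), or 1.89-fold, with adjusted p = 0.00315, and the call held with each array left out (0.83 to 1.00) and in every scaling. A further row of several symbols with these genes, below the brightness threshold, differed by 0.92.

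For the pi class, probe set 10361152 read 9.65, 10.002 and 9.50 in the knockout and 10.02, 10.46, 10.73 and 10.41 in the rescued arrays. The groups did not overlap, but the highest knockout and the lowest rescued value nearly met. The difference was -0.69 (SE 0.16), with adjusted p = 0.0333, and the row was bright through the rescued arrays only (1376 against 851). The call was lost when knockout replicate 1 or 3 or rescued replicate 2, 3 or 4 was left out. Differences over the 7 fits that leave out 1 array lay between -0.83 and -0.58. The second row of Gstp1 and Gstp2 differed by -0.38 (SE 0.15) and did not pass (adjusted p = 0.118). Among rows of 1 symbol, Gstp1 differed by -0.40 (SE 0.13, adjusted p = 0.0792), Gstp3 by 0.23 (adjusted p = 0.0730), Gsta3 by 0.03 (SE 0.06, adjusted p = 0.772) and Gsta4 by 0.25 (SE 0.11, adjusted p = 0.155), and none of these passed.

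**Figure D2:**
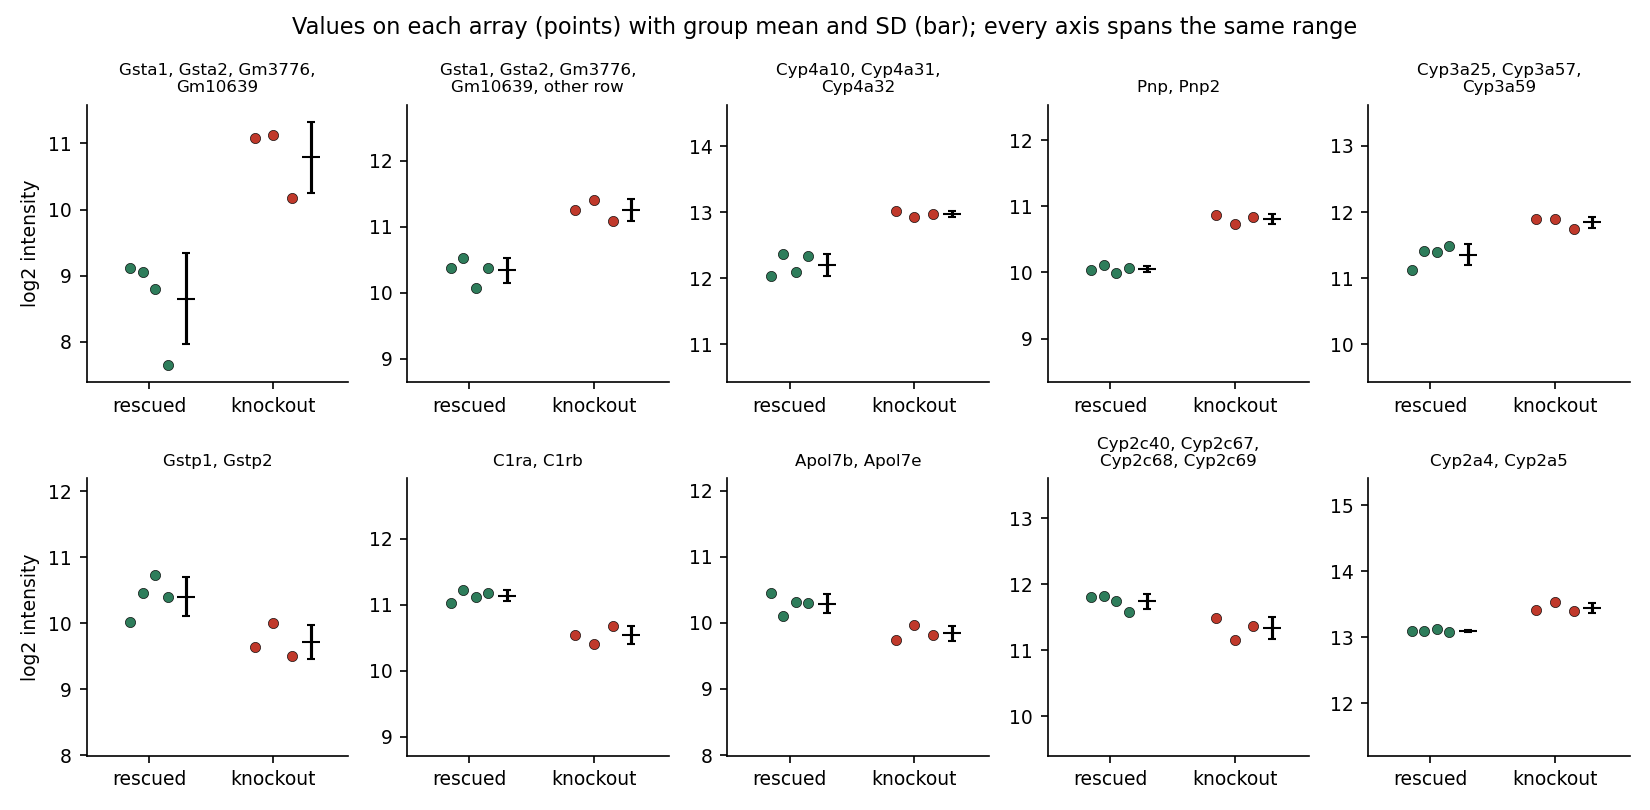
Log2 intensity (y axis) on each rescued (green) and knockout (red) array for 10 rows, with the group mean and SD as a black bar, every axis spanning the same range. The rows of Gsta, Cyp4a, Cyp3a, Cyp2a and Pnp genes are higher in the knockout arrays and those of Gstp, C1r, Apol7 and Cyp2c genes lower, and the first Gsta row has the widest spread within its groups.

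Of 6 cytochrome P450 rows, 3 were higher, 1 was lower and 2 did not pass. The row of Cyp4a32, Cyp4a31 and Cyp4a10, enzymes that hydroxylate the far end of fatty acids, read 13.01, 12.93 and 12.97 in the knockout and 12.04, 12.36, 12.09 and 12.33 in the rescued arrays. The knockout values lay close together and well clear of the rescued ones. The difference was 0.77 (SE 0.09), or 1.70-fold, with adjusted p = 0.00296, and it stayed between 0.71 and 0.82 and called with each array left out. The rows that name only Cyp4a10 (0.85, SE 0.12, adjusted p = 0.00522) and only Cyp4a31 (1.01, SE 0.14, adjusted p = 0.00539) were higher as well. Cyp4a14 was higher by 1.35 (adjusted p = 0.0136, and 0.0623 when knockout replicate 1 was left out), whereas Cyp4a12a (0.29, adjusted p = 0.0984) and Cyp4a12b (0.29, adjusted p = 0.0723) did not pass.

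The row of Cyp3a59, Cyp3a57 and Cyp3a25, of the family that oxidises steroids and many drugs, read 11.89, 11.89 and 11.75 in the knockout and 11.12, 11.41, 11.39 and 11.48 in the rescued arrays. The groups did not overlap, and rescued replicate 1 was the lowest. The difference was 0.49 (SE 0.09), with adjusted p = 0.0172, which rose to 0.0676 and 0.0508 when knockout replicate 1 or 2 was left out. The row of 1 symbol for Cyp3a25 was higher by 0.28 (adjusted p = 0.0364) and that for Cyp3a44 by 0.72 (adjusted p = 0.0312). The Cyp3a25 call held only in the fit that leaves out knockout replicate 3, and that of Cyp3a44 needed knockout replicates 1 and 2 and rescued replicates 2 and 3 (0.24 to 0.31 and 0.61 to 0.94 over the fits). The row of Cyp3a41b, Cyp3a44 and Cyp3a41a differed by 0.27 and did not pass (adjusted p = 0.106), nor did Cyp3a11 (0.26, adjusted p = 0.0575) or Cyp3a13 (0.15, adjusted p = 0.454). The row of Cyp2a5 and Cyp2a4, the former a coumarin hydroxylase, read 13.42, 13.53 and 13.39 in the knockout and 13.09, 13.10, 13.12 and 13.08 in the rescued arrays. The rescued values were nearly level and below every knockout value. The difference was 0.35 (SE 0.06), or 1.28-fold, with adjusted p = 0.0153, and it held with each array left out (0.31 to 0.38) but not after median centring (adjusted p = 0.059). Cyp2a12, on a row of its own, differed by -0.59 and did not pass (adjusted p = 0.0729).

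The row of Cyp2c69, Cyp2c67, Cyp2c68 and Cyp2c40, of a family that acts on arachidonic acid and on drugs, was the lower one. It read 11.49, 11.16 and 11.36 in the knockout and 11.81, 11.81, 11.75 and 11.58 in the rescued arrays. The groups did not overlap, with knockout replicate 1 and rescued replicate 4 nearest to each other. The difference was -0.40 (SE 0.09), with adjusted p = 0.0332, and leaving out any array other than rescued replicate 4 ended the call (-0.48 to -0.31, adjusted p up to 0.0873). Among rows of 1 symbol, Cyp2c67 was lower with a difference of -0.51 (SE 0.10, adjusted p = 0.0196, and up to 0.0598 when knockout replicate 1 or rescued replicate 2 was left out), while Cyp2c38 (1.18, adjusted p = 0.0127) and Cyp2c39 (1.29, adjusted p = 0.00702) were higher. Cyp2c68 (0.18, adjusted p = 0.336), Cyp2c54 (-0.45, adjusted p = 0.0540) and Cyp2c37 (0.32, adjusted p = 0.0516) did not pass. The row of Cyp4v3 with Klkb1, the gene of plasma prekallikrein, differed by -0.15 (adjusted p = 0.150). The 2 rows of Ugt genes did not pass. The Ugt1a row, of enzymes that attach glucuronic acid for excretion, differed by 0.17 (adjusted p = 0.110). The row of Ugt3a2 and Ugt3a1 differed by 0.09 (adjusted p = 0.382).

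**Figure D3:**
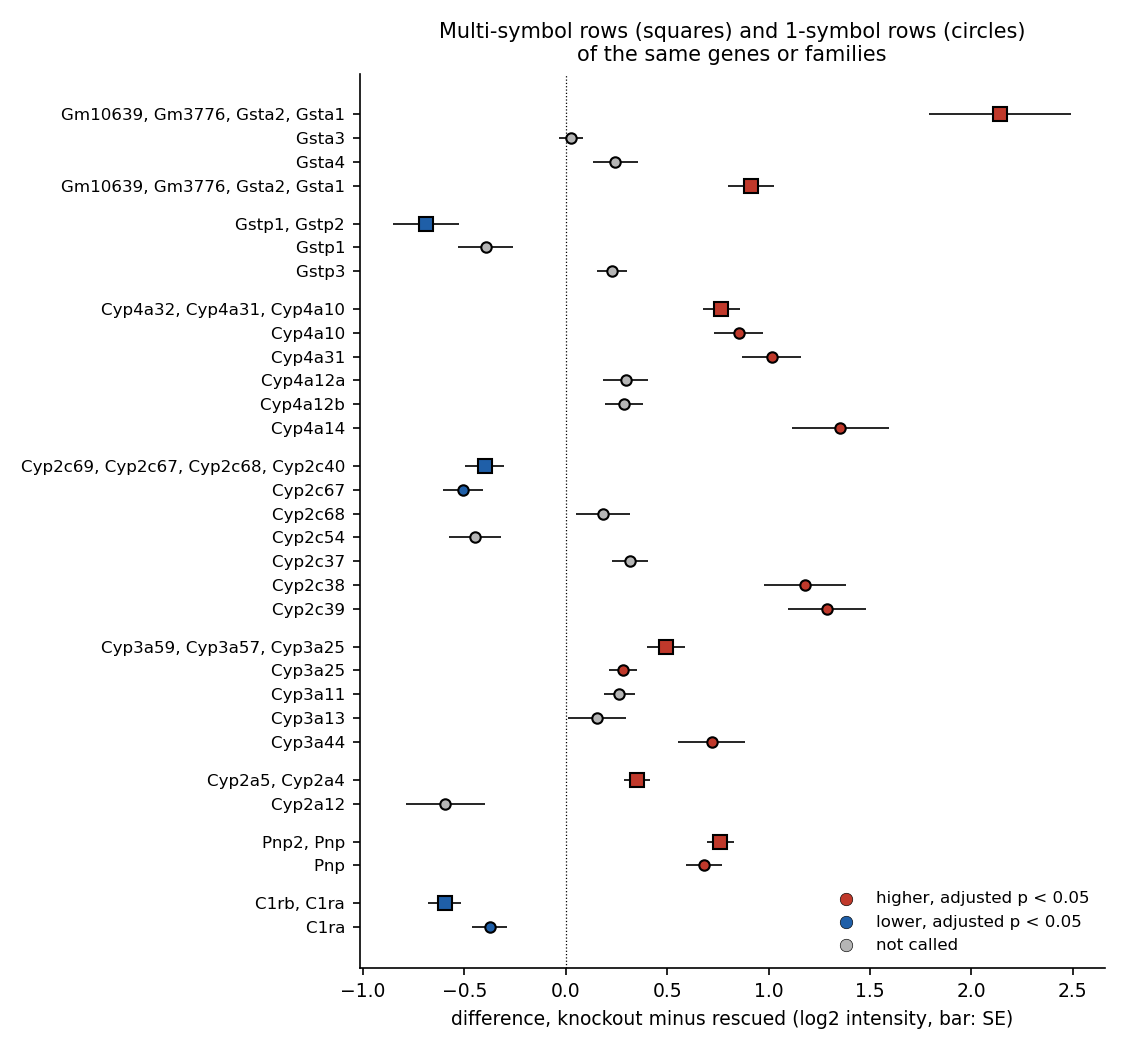
Differences between knockout and rescued arrays (log2 intensity, x axis, with SE) for rows of several symbols (squares) and rows of 1 symbol from the same genes or families (circles), coloured by call. The Cyp4a row at 0.77 stands beside Cyp4a10 at 0.85 and Cyp4a31 at 1.01, and the Cyp2c row at -0.40 beside Cyp2c67 at -0.51 and Cyp2c39 at 1.29.

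The row with the smallest adjusted p of the 178 carried Pnp2 and Pnp, which encode purine nucleoside phosphorylase, an enzyme that splits inosine and guanosine into a base and ribose phosphate. It read 10.87, 10.73 and 10.84 in the knockout and 10.04, 10.11, 9.99 and 10.07 in the rescued arrays. The spread within each group was small beside the gap. The difference was 0.76 (SE 0.07), or 1.70-fold, with adjusted p = 0.000608, and it lay between 0.73 and 0.80 when any single array was left out. The row that names Pnp alone was higher by 0.68 (SE 0.09, adjusted p = 0.00400).

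Among rows for secreted liver products, that of C1rb and C1ra, proteases of the first complement component, was lower in the knockout livers. It read 10.54, 10.41 and 10.68 in the knockout and 11.03, 11.23, 11.12 and 11.18 in the rescued arrays. No values overlapped. The difference was -0.60 (SE 0.08), or 1.51-fold, with adjusted p = 0.00495, and it stayed called with each array left out (-0.67 to -0.53). C1ra alone was also lower, with a difference of -0.38 (SE 0.09, adjusted p = 0.0296), but its call needed knockout replicates 1 and 2 and rescued replicates 3 and 4 (-0.43 to -0.33). The row of Apol7e and Apol7b, of the apolipoprotein L family, read 9.75, 9.96 and 9.81 in the knockout and 10.45, 10.10, 10.31 and 10.31 in the rescued arrays. Again the groups did not overlap, and rescued replicate 2 was the nearest to the knockout values. The difference was -0.45 (SE 0.09), with adjusted p = 0.0223. Leaving out knockout replicate 1 or rescued replicate 3 or 4 ended the call (differences of -0.52 to -0.40 over the 7 fits). The row averaged 919 in the knockout arrays and was bright through the rescued ones. Apol7a, on a row of its own, differed by -0.32 and did not pass (adjusted p = 0.0537). A further row of several symbols with Apol7b and Apol7e, below the brightness threshold, differed by 0.02.

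The alpha-1-antitrypsin genes Serpina1a to Serpina1e, whose products inhibit neutrophil elastase, shared 2 rows that did not pass, at 0.05 (adjusted p = 0.607) and -0.03 (adjusted p = 0.699). Both rows of the class I histocompatibility genes H2-D1 and H2-K1, which present peptides to T cells, did not pass either, at 0.11 (adjusted p = 0.286) and 0.07 (adjusted p = 0.412). The major urinary proteins are small carriers that the male mouse liver secretes in large amounts. Their row of Gm21286, Mup-ps15, Mup16, Mup-ps12 and Mup6 read 10.20, 10.80 and 10.21 in the knockout and 8.99, 9.61, 9.18 and 10.69 in the rescued arrays. Rescued replicate 4 lay among the knockout values, and the difference of 0.78 (SE 0.35) did not pass (adjusted p = 0.145). The row averaged 882 in the rescued arrays and was bright through the knockout ones only (1379). A row of Gm21286, Mup-ps15 and Mup-ps12 read 10.57, 10.52 and 10.55 in the knockout and 10.30, 10.25, 10.03 and 10.26 in the rescued arrays. The groups did not overlap. The difference was 0.34 (adjusted p = 0.0318), and it held only when rescued replicate 1 was the array left out (0.28 to 0.36 over the fits). Its call ended after quantile scaling (adjusted p = 0.0541) and median centring (0.0767). The other row of these symbols differed by 0.36 (SE 0.30) and did not pass (adjusted p = 0.403), with rescued replicate 4 at 11.26 above every knockout value. On rows of 1 symbol Mup21 was lower with a difference of -0.73 (adjusted p = 0.0332, with the call resting on knockout replicates 1 and 2 and rescued replicates 2 and 3, -0.84 to -0.59), and Mup3 did not pass (-0.06, adjusted p = 0.483).

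All 3 bright globin rows, for the chains of haemoglobin, were higher in the knockout livers as deposited. A further row of several symbols with Hbb genes, below the brightness threshold, differed by 0.92. The row of Hbb-bt, Hbb-bs, Hbb-b2 and Hbb-b1 read 12.26, 11.96 and 12.37 in the knockout and 11.50, 11.63, 11.45 and 11.86 in the rescued arrays. Knockout replicate 2 and rescued replicate 4 were close, though the groups did not overlap. The difference was 0.59 (SE 0.12), or 1.5-fold, with adjusted p = 0.0232, and it was called in every scaling. Leaving out knockout replicate 1 or 3 or rescued replicate 2 or 3 ended the call (0.50 to 0.71 over the 7 fits). Of the 2 rows of Hba-a2 and Hba-a1, probe set 10375058 read 11.77, 11.65 and 11.65 in the knockout and 11.05, 11.22, 10.91 and 11.51 in the rescued arrays, a difference of 0.52 (SE 0.13, adjusted p = 0.0367). Probe set 10375051 read 12.70, 12.43 and 12.78 against 12.05, 12.27, 11.92 and 12.43, and here the groups met at knockout replicate 2 and rescued replicate 4. Its difference was 0.47 (SE 0.13, adjusted p = 0.0491), and its call was lost in each of the 3 other scalings. Both alpha-globin calls held only in the fit that leaves out rescued replicate 4, with differences of 0.43 to 0.63 for probe set 10375058 and 0.39 to 0.57 for the other. The call of 10375058 also ended after quantile scaling (adjusted p = 0.055) and median centring (0.069).

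Alas2, the erythroid enzyme that starts haem synthesis, read 8.49998, 8.17 and 8.56 in the knockout and 9.49, 9.47, 9.54 and 9.74 in the rescued arrays. It was therefore lower in every knockout array, with a difference of -1.15 (SE 0.11), adjusted p = 0.000783 and a call in every scaling. Slc4a1, the anion exchanger of the red cell membrane, read 7.44, 6.97 and 7.47 against 6.94, 6.97, 6.79 and 7.0008 and did not pass (0.37, adjusted p = 0.0712). These were the 2 measured of the 5 listed erythroid markers, with summed linear intensities of 414 to 556 in knockout arrays against 832 to 983 in rescued ones. In whole liver RNA, more cells of a type and more RNA per cell cannot be told apart, and the part of blood content in the globin rows was not tested.

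**Figure D4:**
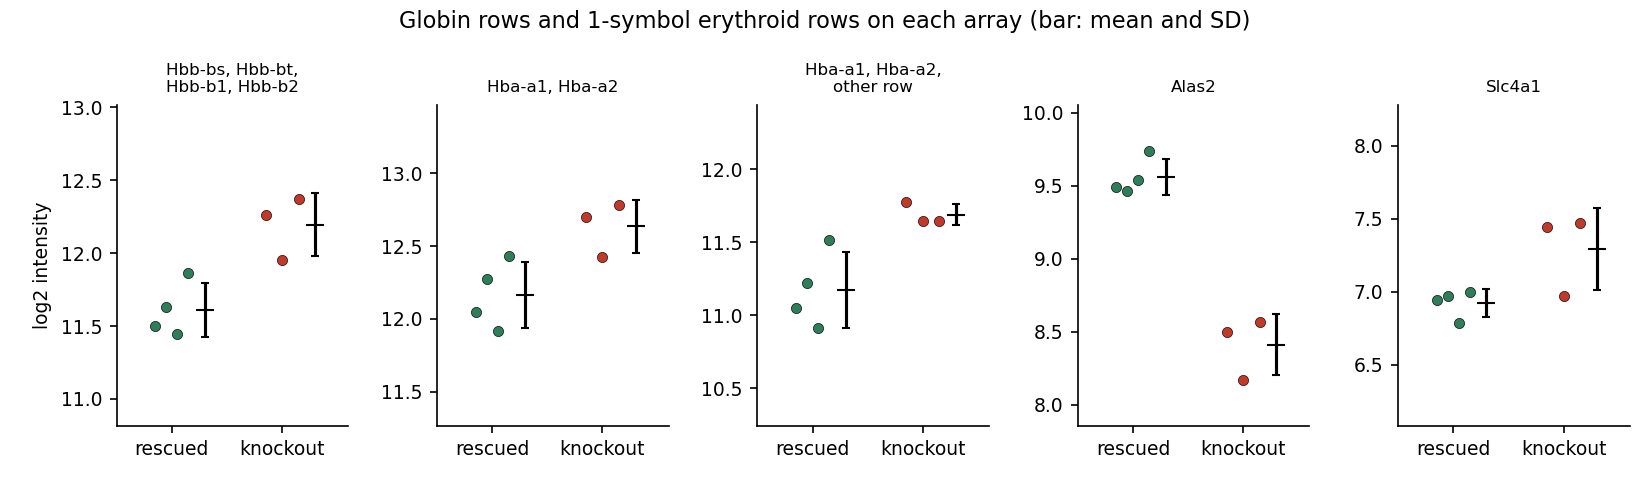
Log2 intensity (y axis) on each rescued (green) and knockout (red) array for the 3 globin rows and for Alas2 and Slc4a1, with group mean and SD as a black bar and axes of equal span. The globin rows are higher in the knockout group by 0.47 to 0.59, and Alas2 is lower by a difference of -1.15.

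Cytosolic ribosomal proteins, the building blocks of the ribosome that makes protein outside mitochondria, supplied 77 of the 178 rows under 32 symbol sets. Of these, 2 were higher, 5 were lower and 70 did not pass. The share called was close to the 9.76% of all rows and below the 14% of the 178. Their median difference was -0.06 as deposited and -0.11 after cyclic loess, beside 0.10 and 0.00 over all rows, and the differences ran from -0.84 to 0.36. The 5 lower rows were called in every scaling. Of the 2 higher rows, that of Rps2 was called in no other scaling and that of Rpl21 was also called after cyclic loess (adjusted p = 0.0488) but not in the other two, and median centring raised the number called to 12. The brightest ribosomal row, that of Gm10653 and Rps2 at 13449 in mean linear intensity, differed by -0.03 (adjusted p = 0.755).

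Rows with the same ribosomal symbols included calls in both directions in 1 set, that of Rpl21. Rpl21, a large-subunit protein, appeared on 8 bright rows, always beside Camkv and on 7 of them beside Cep170, a kinase-like and a centrosomal gene whose own rows did not pass (0.07, adjusted p = 0.560, and -0.07, adjusted p = 0.504). Probe set 10587651 of this set read 10.48, 10.53 and 10.52 in the knockout and 10.91, 10.89, 11.06 and 10.85 in the rescued arrays. It was lower without overlap, by a difference of -0.42 (SE 0.07, adjusted p = 0.0121), and held with each array left out (-0.44 to -0.37). Probe set 10599433 of the same symbols read 12.32, 12.33 and 12.19 against 11.88, 12.12, 11.82 and 11.86. It was higher without overlap, by 0.36 (adjusted p = 0.0336), but its call ended after quantile scaling (adjusted p = 0.0544) and median centring (0.0901), and it held only when knockout replicate 3 or rescued replicate 2 was the array left out (0.33 to 0.43). The other bright Rpl21 rows did not pass, and the median over all 8 was -0.04. Rows of several symbols with Rpl21 below the brightness threshold ran from -0.41 to 0.48. Of the 9 rows that name Rpl21 alone, 1 was lower (-0.59, adjusted p = 0.0293), and its call needed knockout replicates 1 and 3 and rescued replicates 2, 3 and 4 (-0.77 to -0.42).

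The other 4 lower rows were less firm. Ino80 with Rpl35a differed by -0.39 (adjusted p = 0.0322) and needed knockout replicates 2 and 3 and rescued replicates 2, 3 and 4 for its call (-0.47 to -0.30 over the fits). A row of Rpl29 with 4 further symbols, 2 of them pseudogenes in RefSeq, differed by -0.33 (adjusted p = 0.0354). Its call needed knockout replicates 1 and 2 and rescued replicates 2, 3 and 4 (-0.38 to -0.27). Rpl13a with Zfp526 differed by -0.29 (adjusted p = 0.0459) and needed every array (-0.35 to -0.23). Rpl32l with Rpl32 differed by -0.27 (adjusted p = 0.0460) and needed every array but knockout replicate 3 (-0.32 to -0.22). The second higher row was 1 of 11 of Rps2, a small-subunit protein, at 0.31 (adjusted p = 0.0440), which needed knockout replicates 1 and 2 and rescued replicates 2, 3 and 4 (0.25 to 0.35). The 11 bright Rps2 rows ranged from -0.12 to 0.31 with a median of 0.01, and the 11 bright Rpl29 rows from -0.33 to 0.30 with a median of 0.02. The 7 bright Rpl17 rows were all below 0, from -0.27 to -0.01 with a median of -0.21, and none passed. Rows of several symbols below the brightness threshold ran from -0.40 to 0.22 for Rpl17 and from -0.47 to 0.72 for Rpl29.

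**Figure D5:**
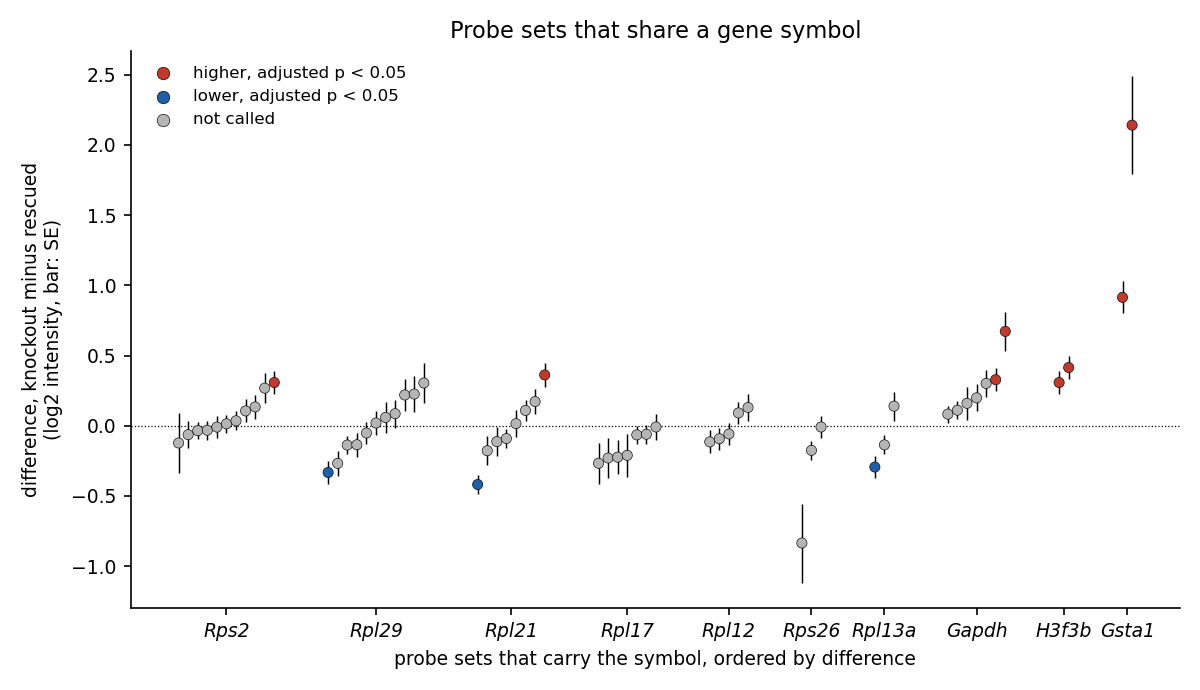
Differences between knockout and rescued arrays (log2 intensity, y axis, with SE) for rows that carry the gene symbol named on the x axis, ordered by difference and coloured by call. Rows of Rpl21 run from -0.42 (called lower) to 0.36 (called higher), those of Gapdh from 0.08 to 0.67, and the pair of Gsta1 rows lies at 0.91 and 2.14.

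Gapdh, the glycolytic enzyme that is often used as a reference gene, appeared on 7 bright rows, beside symbols that RefSeq lists as pseudogenes. All 7 differences were above 0 as deposited, from 0.08 to 0.67 with a median of 0.20, but that of the brightest row turned to -0.03 on median centring and to -0.01 with cyclic loess. The 2 rows that passed were not the brightest. Probe set 10579769 read 10.86, 10.81 and 10.37 in the knockout and 9.997, 10.24, 9.74 and 10.04 in the rescued arrays. The groups did not overlap, and knockout replicate 3 was the lowest of its group. The difference was 0.67 (SE 0.14, adjusted p = 0.0232). It was called in every scaling but needed knockout replicates 1 and 2 and rescued replicates 3 and 4 (0.58 to 0.83). Probe set 10571876 was higher by 0.33 (adjusted p = 0.0361), was called in no other scaling and held only when knockout replicate 3 or rescued replicate 2 was left out (0.30 to 0.38). The brightest Gapdh row, at 11849 in mean linear intensity, differed by 0.08 (adjusted p = 0.349).

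Both rows of Gm6485 and H3f3b, which encodes a histone H3 variant laid down outside replication, were higher. Probe set 10393058 read 10.37, 10.32 and 10.33 in the knockout and 9.94, 9.74, 9.95 and 10.07 in the rescued arrays. The groups did not overlap. Its difference was 0.41 (adjusted p = 0.0201), with a call that needed knockout replicate 1 and rescued replicate 3 (0.35 to 0.46) and ended after median centring, and it averaged 975 in the rescued arrays. The other row was higher by 0.31 (adjusted p = 0.0431), was called in no other scaling and held only when knockout replicate 3 was left out (0.25 to 0.35). The 2 rows of H3f3a, which encodes the same protein, differed by 0.08 (adjusted p = 0.548) and -0.18 (adjusted p = 0.101).

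None passed among the 5 tubulin and actin rows, the 5 chaperone rows, the 5 small nucleolar or nuclear RNA rows, the 3 microRNA rows, the 3 respiratory chain rows and the 2 translation factor rows, families that overlap in part. Those nearest to the threshold were Tuba1c, Tuba1b and Tuba1a, for alpha-tubulin, at 0.39 (adjusted p = 0.0563), Mir692 genes with Ftl1, the ferritin light chain, at 0.29 (adjusted p = 0.0631), and Ankhd1 with Eif4ebp3, an inhibitor of cap-dependent translation, at -0.39 (adjusted p = 0.0900). A row of Hspa8, the constitutive heat shock chaperone, with Snord14 genes of its introns differed by 0.40 (adjusted p = 0.111). The 3 respiratory chain rows had differences close to 0. Ndufb4 stood at 0.07 (adjusted p = 0.426) and Cox7c at 0.06 (adjusted p = 0.483) and -0.06 (adjusted p = 0.524). Below the brightness threshold, a further row of Cox7c with Gm12338 differed by -0.88, and a further row of Ndufb4 by -0.10. The brightest row of the 178 was that of Rn7s2 and Rn7s1, the RNA of the signal recognition particle, at 15631 in mean linear intensity and a difference of -0.01 (adjusted p = 0.907). Malat1 with Ramp2, the former a nuclear long RNA, stood at 12606 and differed by 0.08 (adjusted p = 0.356).

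At the brightness threshold, the rows just inside were Fyb with Phb at 1004, a row of Rpl29 at 1013 and one of Mettl7a genes at 1026, with differences of 0.01, -0.05 and -0.12. Just outside were a row of 18 zinc finger and predicted symbols at 982, Gm7809 with Tpm4 at 973 and a row of Hmgb1 at 973, with differences of -0.17, -0.02 and -0.09.

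In the same fit the row of Hdac3 itself was lower in the knockout arrays, at 8.92 ± 0.16 (SD, n = 3) against 9.40 ± 0.13 (SD, n = 4), a difference of -0.48 (SE 0.10, adjusted p = 0.0220, with a call that held only when knockout replicate 3 or rescued replicate 1 was left out). Whether this row also reads the vector transcript was not tested. The array medians over all rows were 105 to 111 for the knockout against 96.3 to 102 for the rescued arrays, while the medians over the 178 rows were 2210 to 2285 and 2255 to 2441. Of the 5 measured hepatocyte markers none passed, with summed intensities of 58088 to 58653 against 55999 to 57917 for knockout and rescued arrays. The 6 Kupffer cell markers (2485 to 2642 against 1911 to 2859) also held no call. The 5 endothelial markers summed to 3423 to 4124 against 4174 to 4285 and the 4 cholangiocyte markers to 513 to 584 against 445 to 492, with no single marker called as deposited. The brightest endothelial marker, Clec4g, differed by -0.29 and passed only after median centring (adjusted p = 0.0349). The other endothelial markers lay between -0.08 and 0.15. Sox9, the brightest cholangiocyte marker, differed by 0.31, and the others by 0.07 to 0.17. Sums overlapped for the 6 stellate (3981 to 4472 against 3989 to 4417) and 7 other leukocyte markers (518 to 600 against 498 to 545), without a call as deposited. The stellate marker Lrat differed by 0.32 (adjusted p = 0.0536) and passed after quantile scaling (adjusted p = 0.0313) and cyclic loess (0.0347). The other stellate markers lay between -0.08 and 0.21. The part of cell content in the differences above was not tested.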

How the data were processed

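The deposited table gives 1 linear intensity value per probe set and array. The submitters' processing notes name RMA (background subtraction, quantile normalization and probe summary) and Partek, with neither versions nor roles, for the intensity values that the authors deposited. The last scaling applied is unknown. The build was not given in the sources used here. Groups come from the labels, which call the arrays biological replicates.

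Values were log2 transformed with no further scaling. All 27541 rows were fitted in R 4.3.3 by its package limma 3.58.1 (lmFit, then eBayes, 2-sided), without covariates, and p-values were adjusted over all rows by Benjamini-Hochberg. The fit was tested on simulated data. Rows were named through the platform annotation and RefSeq tables (GRCm38.p6). Promoter windows were compared with Biopython 1.88. The named rows include up to 15 called rises and up to 15 called falls without overlap, each symbol set counted once. Neither direction reached this limit. Also named are up to 3 rows of each of 27 families, the 5 brightest, and the 3 nearest to the brightness threshold on each side, with rows of 1 symbol from the same genes or families. Other rows named were chosen after their values were seen. The members and lists were chosen with earlier results of these data known. Levels were not compared between probe sets, and the number of arrays limits the precision. Figures were drawn with matplotlib 3.10.9. Alternatives were 3 rescalings, filters on dim or unnamed rows, other spread models, array weights, the replicate block, each array left out, other thresholds and other brightness limits.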

Additional observations from a re-analysis of the deposited data

Results flagged for a closer look

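Of 51 named rows, 4 held a rescued array that stood apart from the other 3 by Dixon's criterion, which chance meets in about 5% of such groups. Rescued replicate 3 read 10.03 in the row of Gm21286, Mup-ps15 and Mup-ps12, where the others read 10.25 to 10.30. In the row of Ugt3a2 and Ugt3a1, rescued replicate 4 read 11.78 against 11.57 to 11.61. Rescued replicate 1 read 12.43 against 12.55 to 12.56 in a row of the Serpina1 genes. In a row of Snord14d, Snord14c and Hspa8, rescued replicate 4 read 10.10 against 10.41 to 10.46.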

How the results depend on the processing

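No row called in the report changed its direction under the alternatives that were run. Of all 27541 rows, the number called went from 2687 (1788 higher, 899 lower) to 304 (163 and 141) at a threshold of 0.01, to 6420 (4666 and 1754) at 0.1 and to 399 (197 and 202) with a fold of at least 1.5. Among the 178 bright rows the same settings gave 4 (3 higher, 1 lower), 40 (20 lower) and 8 (6 and 2). The number of higher calls over all rows was 910 after quantile scaling, 508 after median centring and 872 after cyclic loess, and median centring gave 2057 lower. Higher calls among the bright rows fell to 9 with quantile scaling, 7 with median centring and 10 with array weights, and median centring gave 24 lower. With the replicate number as a block, 1304 of all rows (794 higher, 510 lower) and 14 of the bright rows (3 lower) were called. Deviations of arrays with 1 number correlated at 0.157, 0.0407 and 0.0231, and knockout replicate 2 correlated best with rescued replicate 3 (0.117), so the numbers were not taken to pair the arrays. Leaving out each array in turn gave 570 to 3058 calls over all rows (278 to 2085 higher, 275 to 973 lower) and 8 to 36 among the bright rows (4 to 21 higher, 2 to 15 lower), with 8 without rescued replicate 3, 9 without knockout replicate 1, 11 without knockout replicate 2, 13 without rescued replicate 2, 15 without rescued replicate 4 and 36 without knockout replicate 3. A brightness limit of 500 gave 279 rows with 42 called (20 lower), and a limit of 2000 gave 104 rows with 15 called (10 higher, 5 lower). Of the 51 named rows, calls were lost in 9 after median centring, 7 after quantile scaling, 4 after cyclic loess, 6 with array weights and 13 with the replicate block. Filters on dim or unnamed rows and a trended, robust spread ended none.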

Other observations

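The largest falls among the 178 rows, named after their values were seen, did not pass the test. A row of Rps26, a small-subunit ribosomal protein, with Gm6654 read 10.96, 12.26 and 12.41 in the knockout and 12.65, 12.74, 12.69 and 12.76 in the rescued arrays. Knockout replicate 1 lay far below the rest, and the difference was -0.84 (SE 0.28, adjusted p = 0.0786). The other 2 rows of the same symbols differed by -0.18 (adjusted p = 0.117) and -0.01 (adjusted p = 0.942). A row of Cdv3 and Gm13238 read 10.54, 11.32 and 11.69 in the knockout and 12.11, 11.91, 12.04 and 11.71 in the rescued arrays. Knockout replicate 1 was again the lowest, and the difference was -0.76 (SE 0.22, adjusted p = 0.0576), against -0.04 for the other row of these symbols.

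Rows of the same symbol set can be set side by side as a description. Over 44 symbol sets with more than 1 row, the median range of the rows' differences was 0.20. The range was 1.23 between the pair of Gsta rows, 0.83 among the 3 rows of Rps26 and 0.78 among the 7 rows of Camkv, Rpl21 and Cep170. These sets were picked after their values were seen.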
